A study of Mus musculus with 82 samples.

Results

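The 9 genes described here encode ligands and receptors of the platelet-derived growth factor (PDGF) and fibroblast growth factor (FGF) families: the receptors Pdgfra, Pdgfrb and Fgfr1, and the ligands Pdgfa, Pdgfb, Pdgfc, Fgf2, Fgf7 and Fgf10. They were taken by gene symbol from the count tables, where all 9 were found among 55401 genes. All 9 passed the low-count filter at both time points and could therefore be tested, although Fgf10 was close to 0 in most libraries after 24 h.

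PDGF ligands are dimers that bind and pair PDGFRα and PDGFRβ, receptor tyrosine kinases which signal through adaptors to the RAS–ERK, PI3K and PLCγ routes. PDGFRβ is the typical PDGF receptor of smooth muscle cells and pericytes and responds best to PDGF-B, which in vessels is made mainly by endothelium and platelets, whereas PDGFRα is abundant in fibroblasts and binds PDGF-A and PDGF-C as well. FGF ligands need heparan sulfate for stable binding to their receptors. FGF2 is a mitogen of smooth muscle and endothelium that acts mostly through FGFR1, while FGF7 and FGF10 are made by mesenchymal cells and act on the epithelial form of FGFR2.

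The RNA came from primary aortic vascular smooth muscle cells (aVSMC) of C57BL/6 mice that were kept without serum for 24 h and then incubated with epidermal growth factor (EGF, 10 µg/L), angiotensin II (AngII, 10 nM), the thromboxane A2 receptor (TP) agonist U46619 (1 µM) or combinations of them. The 24 h experiment held 42 libraries in 7 groups of n = 6 (control without agent, each agent alone, EGF with AngII, EGF with U46619, and all 3 agents together, written EGF+AngII+U46619), with cells of each of 6 mice in every group. The 48 h experiment held 40 libraries in 6 groups and 2 batches. Batch 1 consisted of control, EGF, U46619 and EGF+U46619, batch 2 of control, EGF, AngII and EGF+AngII, each with 5 culture sets, so that control and EGF had n = 10 and the other groups n = 5. A culture set is the series of libraries that share a batch and a replicate number. The labels number 5 mice over these 10 culture sets, whereas the methods describe each replicate as a separate animal. By these labels, replicates 1 and 4 of batch 1 and replicates 1, 2 and 5 of batch 2 came from the same mouse. Replicate 5 of batch 1 and replicate 4 of batch 2 shared another. Library totals ranged from 16483529 to 20818809 counts at 24 h and from 19936925 to 33916114 at 48 h. Levels are given as FPM, the counts per M (mega) counts of the scaled library total. A gene was called changed when its adjusted p was under 0.05 in edgeR and in DESeq2 with the same sign and 1 of the compared groups reached 5 FPM on average, in fits that held the mouse as a further term.

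Some libraries stood apart. At 24 h the EGF+AngII+U46619 library of mouse 3 lay farthest from its group, with a mean squared deviation of 1.37 over the tested genes. At 48 h the control library of batch 2 replicate 4 went against its own culture set: its deviations from the group means had a median correlation of -0.28 with those of the 3 other libraries of the set. It held 38.5 FPM of Pdgfra, 75.8 of Pdgfb and 24.9 of Fgf7, against 310 to 357, 11.1 to 13.8 and 287 to 315 FPM in those 3 libraries. Whether this library carries the right label was not tested, and every 48 h comparison with control holds it unless stated. The control library of batch 2 replicate 2 departed from its set to a lesser degree, with a median correlation of 0.54 against 0.89 in the 3 others. It held 48.1 FPM of Fgf7, against 17.6 to 23.9 FPM, and its summed markers were 235 FPM for leukocytes (40.4 to 41.2 FPM in the others) and 1495 FPM for endothelium (2196 to 2484 FPM). Several values that rest on these libraries are also given without them, but not all are.

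The labelled cell type was checked with marker genes. Acta2, the smooth muscle actin, had a mean of 5479 FPM at 24 h and made up 92.1% of the summed smooth muscle markers, and Myh11, Lmod1 and Smtn were detected, but Tagln and Cnn1 were listed at 0 in all libraries, as was every gene of chromosomes 9, X, Y and MT in these tables, and Myocd stayed under 1 FPM on average. The fibroblast markers were also present, with Serpinf1 at a mean of 1624 FPM at 24 h and only Clec3b, which is on one of those chromosomes, listed at 0. Of 9 endothelial markers 8 were detected and Cdh5 was listed at 0, for a reason that was not examined. Their sum differed by mouse: its median at 24 h was 3.44, 4.38 and 46.0 FPM in mice 1, 2 and 3, against 740, 429 and 2252 FPM in mice 4, 5 and 6. These are bulk libraries, so that fewer cells of a type and less RNA per cell cannot be told apart in any of the results.

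Positions are given on the mouse assembly GRCm38. Pdgfra (ENSMUSG00000029231) and Pdgfa (ENSMUSG00000025856) lie on chromosome 5, at 75152292 to 75198215 on the plus strand and at 138976014 to 138997370 on the minus strand. Fgf2 (ENSMUSG00000037225) and Pdgfc (ENSMUSG00000028019) lie on the plus strand of chromosome 3, at 37348346 to 37410108 and 81036416 to 81214040. Pdgfb (ENSMUSG00000000489) is on chromosome 15 from 79995874 to 80014977, minus strand. Fgfr1 (ENSMUSG00000031565) is on chromosome 8 from 25513654 to 25575718, Fgf7 (ENSMUSG00000027208) on chromosome 2 from 126034658 to 126091185 and Fgf10 (ENSMUSG00000021732) on chromosome 13 from 118669791 to 118792115, all on the plus strand. Counts were made over exons, and the sources used here do not say that strand was used. Of the exon bases of Fgf2, 640 (9.44%) overlap exons of Nudt6 on the opposite strand. Nudt6 had a mean of 1.5 FPM at 24 h and 1.26 FPM at 48 h, low beside Fgf2. Reads from the shared bases cannot be assigned to a strand. Of Pdgfa, 813 exon bases (26.1%) overlap an antisense gene, 6330403L08Rik, for which no value is given here.

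The 250 bases before the annotated start are shown for Pdgfra, the receptor gene that fell most clearly, and for Pdgfc, the only member whose window held a searched motif. The RefSeq table for GRCm38.p6 gave windows for 6 of the 9 genes. Capitals mark matches, on either strand, to the CArG box bound by serum response factor, to the AP-1 site TGANTCA or to the TEAD site GGAATG.
Pdgfra, chr5:75152001-75152250, plus strand: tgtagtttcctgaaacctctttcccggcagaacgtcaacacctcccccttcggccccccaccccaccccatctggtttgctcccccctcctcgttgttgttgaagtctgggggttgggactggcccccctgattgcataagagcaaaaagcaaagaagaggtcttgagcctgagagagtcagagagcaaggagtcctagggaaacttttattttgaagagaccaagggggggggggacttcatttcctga
Pdgfc, chr3:81036166-81036415, plus strand: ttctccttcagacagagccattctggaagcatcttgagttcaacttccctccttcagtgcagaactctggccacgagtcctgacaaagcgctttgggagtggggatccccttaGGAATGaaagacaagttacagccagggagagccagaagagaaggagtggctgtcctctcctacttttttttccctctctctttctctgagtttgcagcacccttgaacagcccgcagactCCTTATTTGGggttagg
The CArG match of Pdgfc began 17 bases and its TEAD match 137 bases before the start, and they do not overlap. Among 32851 promoter windows of the same length, 1.47% held a CArG match, 12.6% a TEAD match and 6.75% an AP-1 match. The Pdgfra window held none of these letters. Matches of this kind are a description of the sequence.

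Levels between genes were compared per kilobase of exon in control libraries. Pdgfrb was the most abundant member, with 112 ± 25.5 FPM per kb (SD, n = 6) at 24 h and 71.5 ± 34.9 (n = 10) at 48 h. At 24 h it was followed by Fgfr1 (33.6 ± 11.2 FPM per kb), Pdgfra (27.7 ± 12.3), Fgf7 (24.4 ± 14.5) and Pdgfa (23.3 ± 9.22). These 4 neighbours did not differ beyond their spread: within the same libraries the log2 difference between adjacent genes was 0.34 ± 0.64 for Fgfr1 and Pdgfra, 0.29 ± 1.06 for Pdgfra and Fgf7, and -0.08 ± 0.96 for Fgf7 and Pdgfa. Pdgfb came next (10.7 ± 13.3 FPM per kb), with an SD above its mean, then Fgf2 (3.79 ± 1.44), which Pdgfb exceeded in 3 of 6 libraries only (log2 difference -0.63 ± 3.23), and Pdgfc (2.21 ± 0.607). Fgf10 was lowest with 0.103 ± 0.131 FPM per kb. At 48 h the order after Pdgfrb was Fgf7, Fgfr1, Pdgfa and Pdgfra, again close together, and the order of the lower 4 genes was the same as at 24 h. Pdgfrb exceeded the next gene in 6 of 6 control libraries at 24 h and in 9 of 10 at 48 h. Without the control libraries of batch 2 replicates 4 and 2 the order at 48 h was the same, with 82.04 ± 30.4 FPM per kb (n = 8) for Pdgfrb.

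**Figure D1:**
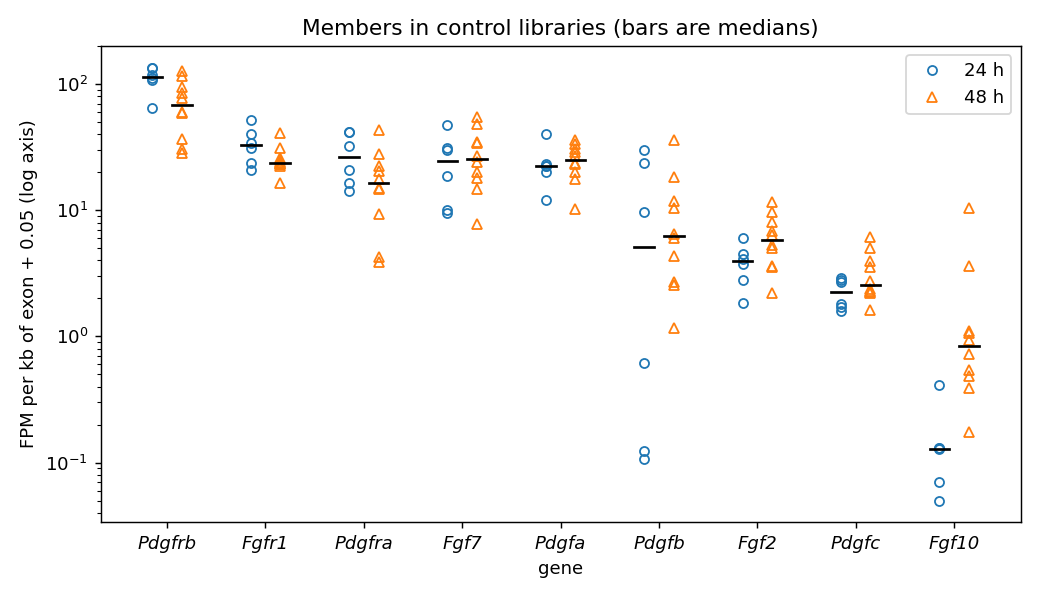
Level of each gene in the control libraries in FPM per kilobase of exon (log axis, 0.05 added so that 0 can be drawn), with 1 point per library and the median as a bar. Pdgfrb lies highest at both times, and Pdgfb and Fgf10 are the most spread.

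Most of the variation between libraries lay between mice and not between treatments. At 24 h the mice accounted for 96.7% of the total variation of log2 FPM of Pdgfb, 81.9% for Fgf10 and 80.0% for Fgf7, and the treatments for 0.743%, 4.56% and 2.57%. Pdgfra was the only one of the 9 with a larger share between treatments (42.5%) than between mice (41.3%), followed by Fgf2 with 26.3% between treatments. At 48 h between 68.9% (Fgf7) and 96.4% (Fgf10) of the variation lay between culture sets. Without the control library of batch 2 replicate 4 this was 84.9% (Fgfr1) to 97.6% (Fgf10), and 92.6% for Fgf7.

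**Figure D2:**
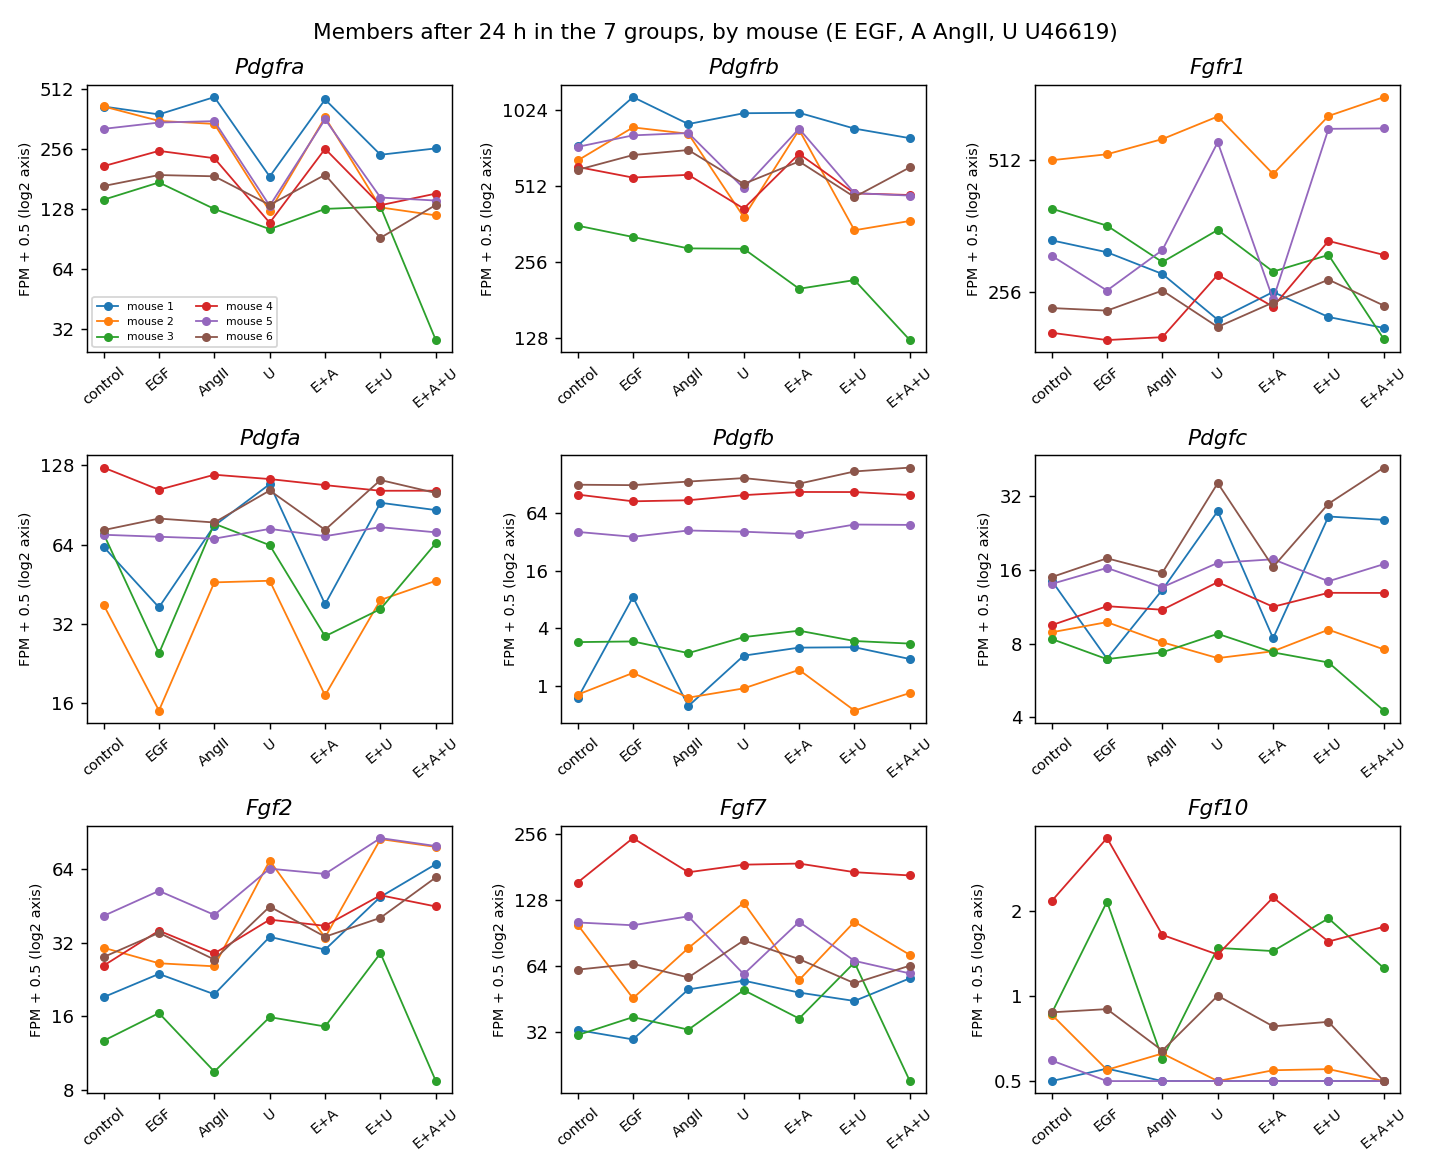
Each gene in the 7 groups at 24 h as FPM + 0.5 (log2 axis), with 1 coloured line per mouse. Pdgfra is lower and Fgf2 higher in the groups that hold U46619, while Pdgfb separates mice 4 to 6 from mice 1 to 3.

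The effect of U46619 on these genes was examined first in the receptors. Pdgfra, the receptor for PDGF-A, PDGF-B and PDGF-C, held 141 to 416 FPM in the 6 control libraries at 24 h, with a median of 265. After incubation with U46619 it held 100.4 to 184.8 FPM (median 128), with EGF+U46619 90.7 to 238 FPM (median 131) and with EGF+AngII+U46619 27.5 to 256 FPM (median 136). The ranges overlapped because mice differed, but every mouse was lower than its own control in all 3 groups. The log2-fold change was -0.98 ± 0.21 (SE) with U46619, that is 0.507-fold, with an adjusted p of 0.000602 by edgeR and 2.19e-05 by DESeq2. With EGF+U46619 it was -0.85 ± 0.21 (adjusted p = 0.00152 and 0.000162). With EGF+AngII+U46619 it was -1.04 ± 0.21 (adjusted p = 0.000186 and 4.04e-06). Without the library of mouse 3 that stood apart the last value was -0.84 ± 0.17, and Pdgfra was still called.

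Pdgfra was not called in any group without U46619. Its medians were 297 FPM with EGF, 284 FPM with AngII and 306 FPM with EGF+AngII, near that of control. The log2-fold change with EGF was 0.06, with a 95% interval from -0.34 to 0.47.

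Pdgfrb (ENSMUSG00000024620, chromosome 18, 61045150 to 61085061, plus strand) is the main PDGF receptor of mural cells. It held 356 to 740 FPM in control (median 628), 288 to 996 FPM with U46619 (median 459), 216 to 865 FPM with EGF+U46619 (median 471) and 125 to 793 FPM with EGF+AngII+U46619 (median 470). It was lower than control in 5 of 6 mice with U46619 and with EGF+U46619, and in 4 of 6 with EGF+AngII+U46619. In mouse 1 it was higher in all 3. The log2-fold change was -0.31 ± 0.17 with U46619, which did not pass (adjusted p = 0.154 by edgeR), -0.46 ± 0.17 with EGF+U46619 (adjusted p = 0.0292 and 0.0148) and -0.51 ± 0.17 with EGF+AngII+U46619 (adjusted p = 0.0147 and 0.00731). These calls were less stable than those of Pdgfra: that with EGF+U46619 was lost when any of mice 2, 4, 5 or 6 was left out, and that with EGF+AngII+U46619 without mouse 3 or 5. Over all alternative settings that lost a call, the log2-fold changes were -0.47 to -0.37 and -0.52 to -0.33.

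Since the PDGF receptors pair, their balance was described as the log2 ratio of Pdgfra to Pdgfrb per kilobase. It was -2.10 ± 0.45 (SD, n = 6) in control at 24 h and -2.78 ± 0.32 with U46619, lower in 6 of 6 mice by 0.68 ± 0.56 on average. With EGF+U46619 it was lower in 5 of 6 mice and with EGF+AngII+U46619 in 6 of 6. Thus Pdgfra fell further than Pdgfrb in these libraries. At 48 h the ratio with U46619 was higher than in control in 3 of 5 culture sets and lower in 2, with a mean difference of 0.04 ± 0.35. With EGF+U46619 at 48 h it was lower than control in 1 of 5 sets, with a mean difference of 0.23 ± 0.36. EGF alone gave 0.31 ± 0.67 at 48 h, lower in 1 of 10 sets. This mean holds the set of batch 2 replicate 4, whose control library stood apart. In that set the log2 difference with EGF was the highest of the 10, at 2.99 for Pdgfra and 0.96 for Pdgfrb. The mean without it is not given here.

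Fgfr1, a receptor for FGF2, did not pass the test in any comparison. It held 207 to 510 FPM in control (median 322) and 213 to 641 FPM with U46619 (median 317), and the log2-fold change was 0.11 ± 0.19. The mice went in opposite directions: with U46619 it went from 510 to 641, from 207 to 280 and from 309 to 560 FPM in mice 2, 4 and 5, but from 335 to 221, from 396 to 354 and from 235 to 213 FPM in mice 1, 3 and 6.

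Among the ligands, Fgf2 was the only one called higher than control at 24 h. It held 12.2 to 40.6 FPM in control at 24 h (median 26.4), 15.4 to 68.7 FPM with U46619 (median 41.8), 28.5 to 85.0 FPM with EGF+U46619 (median 49.1) and 8.21 to 78.8 FPM with EGF+AngII+U46619 (median 62.5). The groups overlapped, but Fgf2 was higher than in the same mouse's control in 6 of 6 mice with U46619 and with EGF+U46619. With EGF+AngII+U46619 it was higher in 5 of 6, the exception being the library of mouse 3. The log2-fold change was 0.73 ± 0.19 with U46619, or 1.66-fold (adjusted p = 0.0038 by edgeR and 0.0012 by DESeq2). With EGF+U46619 it was 1.13 ± 0.19, or 2.19-fold (adjusted p = 3.46e-05 and 1.52e-07). With EGF+AngII+U46619 it was 1.03 ± 0.19, or 2.04-fold (adjusted p = 8.76e-05 and 1.29e-06), and 1.22 ± 0.16 without the library of mouse 3.

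EGF without U46619 gave smaller values for Fgf2 which did not pass the test. The medians were 30.2 FPM with EGF and 33.2 FPM with EGF+AngII, and Fgf2 was above control in 5 of 6 and in 6 of 6 mice. The log2-fold changes were 0.30 ± 0.19 (adjusted p = 0.416 by edgeR) and 0.40 ± 0.19 (adjusted p = 0.185). EGF+U46619 exceeded U46619 alone by 0.40 ± 0.19, with an unadjusted p of 0.0424 by edgeR and an adjusted p of 1, and the interaction of EGF and U46619 was 0.10 ± 0.27, so that a departure from additivity on the log2 scale was not detectable.

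Pdgfa, the ligand of PDGFRα homodimers, had a median of 69.5 FPM in control and 52.2 FPM with EGF. In mice 1, 2 and 3 it went from 62.3 to 36.4, from 37.2 to 14.4 and from 69.8 to 24.2 FPM with EGF. In mice 4, 5 and 6 it went from 125 to 103, from 69.3 to 68.0 and from 72.2 to 79.9 FPM. The low values thus came from 3 of the mice, and the log2-fold change of -0.58 ± 0.21 did not pass (adjusted p = 0.143 by edgeR and 0.0878 by DESeq2). The value with EGF+AngII was -0.54 ± 0.21 (adjusted p = 0.105 by edgeR). When EGF+U46619 was compared with EGF, Pdgfa was higher by 0.61 ± 0.21, or 1.52-fold, in 5 of 6 mice (adjusted p = 0.0431 and 0.0314). This call was lost without mouse 1, 2 or 6, and over all settings that lost it the log2-fold change was 0.46 to 0.64.

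The other members did not pass any test at 24 h. Pdgfc, a ligand that is activated by proteolysis, held 7.87 to 14.5 FPM in control and 6.49 to 35.8 FPM with U46619. It went from 14.0 to 27.4 FPM in mouse 1 and from 14.5 to 35.8 FPM in mouse 6, while the other 4 mice stayed between 6.49 and 16.6 FPM. The log2-fold change was 0.50 ± 0.25 (adjusted p = 0.111 by edgeR). Fgf7, keratinocyte growth factor, held 30.5 to 152.9 FPM in control and 49.2 to 184.3 FPM with U46619, with a log2-fold change of 0.30 ± 0.22. Fgf10, which like FGF7 acts on epithelium, was at most 3.11 FPM in all 42 libraries of 24 h, and no change was detectable at this level.

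The called members were set beside the share of all genes called. With U46619 at 24 h 27.8% of 14528 genes were called, 13.7% higher and 14.2% lower, and 2 of the 9 members were, Fgf2 higher and Pdgfra lower. With EGF+U46619, 33.4% of genes were called (17.1% higher, 16.3% lower) and 3 members, Fgf2 higher and Pdgfra and Pdgfrb lower. With EGF+AngII+U46619, 34.6% of genes were called (18.2% higher, 16.3% lower) and the same 3 members in the same directions. EGF+U46619 against EGF called 13.3% of genes (7.03% higher, 6.26% lower) and 4 members, Fgf2 and Pdgfa higher and Pdgfra and Pdgfrb lower. The 3 comparisons with control share the control libraries. The median log2-fold change of the 9 members with U46619 was 0.23, beside -0.06 for all genes tested.

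No member was called with EGF, where 0.0275% of genes were, with AngII (0%), with EGF+AngII (3.13%), for EGF+U46619 against U46619 (0%) or for the interaction of EGF and U46619 (0%) at 24 h. The count was also 0 in edgeR alone and in DESeq2 alone, where DESeq2 alone called 2.73% of genes with EGF and 8.71% with EGF+AngII, and 0% in the other 3 comparisons. An unadjusted p under 0.05 in both tools was found for 2 members with EGF (17.5% of all genes), 1 with AngII (0.434%), 2 with EGF+AngII (24.5%), 1 for EGF+U46619 against U46619 (2.48%) and 0 for the interaction (3% of all genes).

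**Figure D3:**
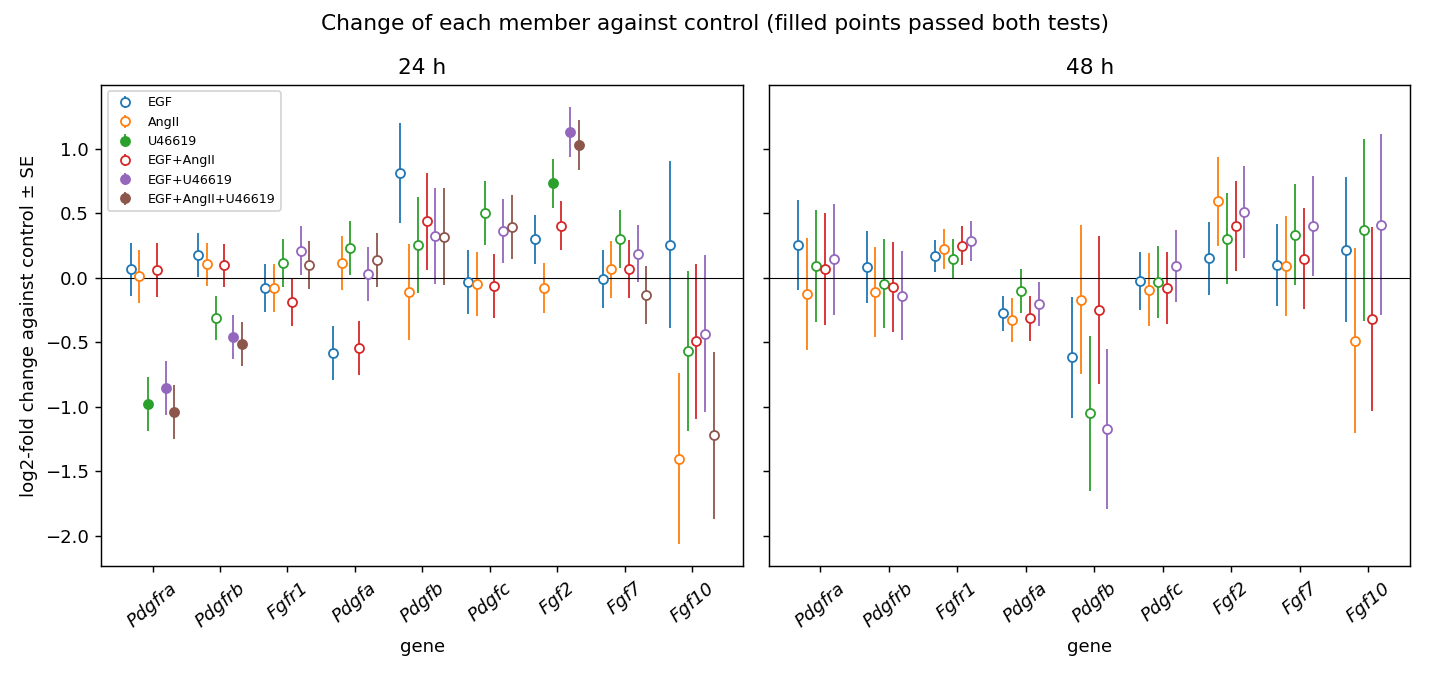
Log2-fold change of each gene against control with its SE, after 24 h (left) and 48 h (right), with 1 colour per treatment and filled points for changes that passed both tools. Filled points are found at 24 h for Pdgfra, Pdgfrb and Fgf2 in groups that hold U46619.

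Other cell type markers moved with U46619 at 24 h, in the same libraries as Pdgfra. Of 10 fibroblast markers 9 were tested and 6 fell, where 14.2% of all genes were called lower, among them Scara5, a scavenger receptor (log2-fold change -3.29 ± 0.50, control mean 49.4 FPM), Ly6a (-0.95 ± 0.22, 249 FPM) and Dcn, a matrix proteoglycan (-1.40 ± 0.56, 709 FPM). Serpinf1, the most abundant of the list with 67.2% of its sum, was at -0.33 ± 0.18 and did not pass. The summed fibroblast markers differed from the same mouse's control by a median of -0.44 on the log2 scale with U46619 (range -1.19 to 0.08), -0.69 with EGF+U46619 and -0.56 with EGF+AngII+U46619. The summed smooth muscle markers differed by 1.83 (range 0.94 to 3.16), 1.28 and 1.41, carried by Acta2 (2.05 ± 0.39 with U46619). Of the 8 tested smooth muscle markers Acta2 and Lmod1 rose with U46619, Acta2 with EGF+U46619, and Acta2 and Smtn with EGF+AngII+U46619, while Synpo2 and Mylk fell with both combinations (-1.03 ± 0.33 and -1.10 ± 0.42 with EGF+U46619). The median log2-fold change of the 8, Acta2 included, was -0.03 with U46619. Of 4 tested pericyte markers 2, Rgs5 (-2.39 ± 0.45) and Notch3 (-1.27 ± 0.32), fell. Among the leukocyte markers Lyz2, with a mean of 40.7 FPM, fell (-1.31 ± 0.23) and Csf1r rose (1.08 ± 0.23). The Schwann marker S100b, with a mean of 4.71 FPM, fell (-2.66 ± 0.50). Of 4 adipocyte markers Plin1 and Adipoq fell with U46619 and all 4 with EGF+U46619. Of 5 mesothelial markers Krt19 rose (2.35 ± 0.56), and of 8 tested endothelial markers Cldn5 fell (-0.96 ± 0.27). The adipocyte sum was high in mouse 6 (median 2079 FPM, 94.9 FPM or less in the other mice) and the mesothelial sum in mice 3 and 5 (medians of 820 and 278 FPM, 8.25 FPM or less in the others). The part of these markers in the changes of Pdgfra, Pdgfrb and Fgf2 was not tested.

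Pdgfb followed the endothelial markers across mice, and at 24 h the pericyte marker Rgs5 as well. At 24 h Pdgfb lay between 0.0511 and 7.95 FPM in the libraries of mice 1 to 3 and between 35.6 and 190 FPM in those of mice 4 to 6, with no overlap. Pecam1, an adhesion molecule of endothelium and the most abundant marker of that list, had medians of 0.334, 0.667 and 4.09 FPM in mice 1 to 3 and of 321, 184.98 and 853 FPM in mice 4 to 6. Rgs5 split the mice likewise, with medians of 0.0548, 0.227 and 0.092 FPM in mice 1 to 3. In mice 4 to 6 they were 205, 45.1 and 80.9 FPM. At 48 h Pdgfb had its highest median in the set of batch 2 replicate 1 (133 FPM, Pecam1 888 FPM) and its lowest in that of batch 1 replicate 5 (4.56 FPM, Pecam1 0.529 FPM). The control library of batch 2 replicate 4, with 75.8 FPM of Pdgfb, also had a summed endothelial marker level of 2337 FPM, against 334 to 352 FPM in the rest of its set. Pdgfb was not called in any comparison. Its log2-fold change with U46619 was 0.25 ± 0.37 at 24 h. At 48 h it was -1.05 ± 0.60 with the mouse label, but -0.37 ± 0.49 without the control library of batch 2 replicate 4, -0.04 ± 0.34 with the culture set block and 0.18 ± 0.42 in batch 1 alone, and Pdgfb was higher than control in 4 of 5 sets. Which cells the Pdgfb reads came from was not tested.

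**Figure D4:**
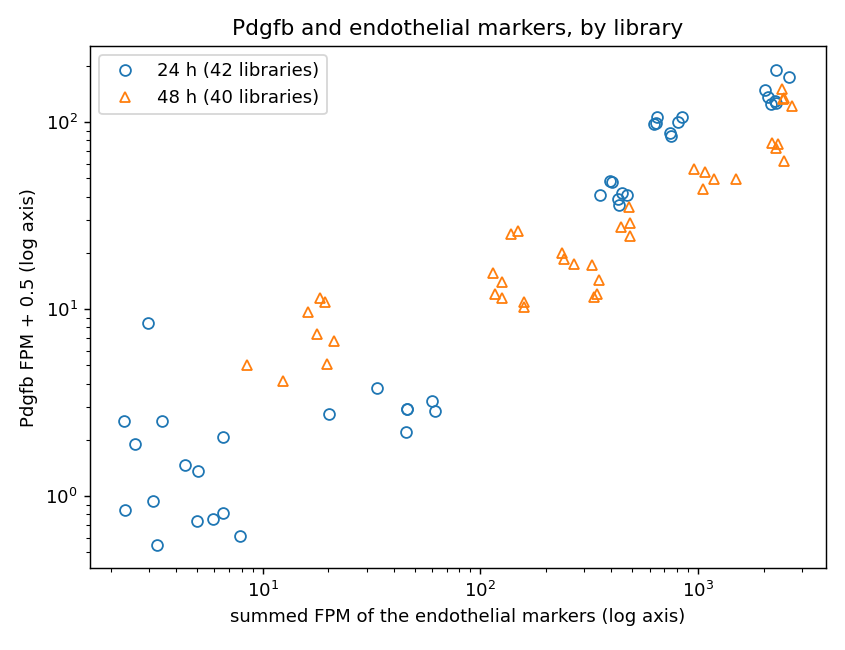
Pdgfb (FPM + 0.5) against the summed FPM of the endothelial markers in each library (both axes log), circles for 24 h and triangles for 48 h. Libraries of 1 mouse or culture set lie together, and Pdgfb is high where the markers are high.

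After 48 h no member was called in any comparison, while 4.03% of genes were called with U46619, 6.85% with EGF+U46619 and 4.81% for EGF+U46619 against EGF (0% for EGF, AngII, EGF+AngII, EGF+U46619 against U46619 and the interaction). The count was also 0 in each tool alone, where DESeq2 alone called 6.64%, 10% and 7.56% of genes in these 3 comparisons. When 1 replicate was left out, the shares were 0.997% to 5.06%, 2.49% to 7.9% and 1.6% to 4.76%. Before adjustment, p was under 0.05 in both tools for 0 members in every comparison, where this held for 21.9% of all genes with U46619, 24.9% with EGF+U46619 and 21.7% for EGF+U46619 against EGF, and for 0.213% to 1.82% in the other 5 comparisons. In these fits the mouse label was the further term, and it gives 1 level to 5 culture sets whose levels differed widely. Pdgfa was lower than its set's control in 9 of 10 sets with EGF (mean log2 difference -0.25 ± 0.39). It was lower in 5 of 5 with AngII (-0.34 ± 0.39) and with EGF+AngII (-0.33 ± 0.33). The lowest values, -1.10, -1.04 and -0.89, all came from the set of batch 2 replicate 4, whose control library stood apart. The medians over sets were smaller in size, at -0.10, -0.19 and -0.27. These differences share control libraries, and the culture set block called 0% of genes in these 3 comparisons.

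Within culture sets, Fgf2 was higher with U46619 in 4 of 5 sets at 48 h. In replicates 1 to 5 of batch 1 it went from 46.3 to 93.4, from 33.7 to 51.2, from 23.6 to 43.5, from 42.6 to 68.7 and from 24.4 to 23.4 FPM. With EGF+U46619 the same replicates held 109, 56.9, 63.7, 72.6 and 17.7 FPM. Of the 5 sets, 4 were thus higher in both groups, and only replicate 5 was not. By the labels, replicates 1 and 4 share a mouse, so that the sets may not be independent. The fit with the mouse label gave log2-fold changes of 0.30 ± 0.35 and 0.51 ± 0.35. With the culture set as block in place of the mouse label they were 0.51 ± 0.22 (adjusted p = 0.127 by edgeR) and 0.66 ± 0.22 (adjusted p = 0.0332 and 0.0163), so that Fgf2 was called with EGF+U46619. That fit called 10.6% of all genes with U46619 and 14.9% with EGF+U46619. In batch 1 alone they were 0.61 ± 0.19 (adjusted p = 0.0471 and 0.0206) and 0.77 ± 0.19 (adjusted p = 0.0121 and 0.0017), and Fgf2 was called in both, beside 11.2% and 15.7% of all genes. The summed fibroblast markers were below control in these 5 sets with U46619 (log2 difference -0.64 to -0.59). So were the pericyte (-1.37 to -0.15), Schwann (-1.88 to -0.69) and endothelial sums (-0.45 to -0.03), while the mesothelial sum was above control (0.14 to 1.41). The part of these markers in the values of Fgf2 was not tested.

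Pdgfra differed between sets in its direction. With U46619 at 48 h it went from 148.1 to 76.1 and from 205 to 134 FPM in replicates 1 and 2 of batch 1, but from 224 to 247, from 150 to 160 and from 436 to 494 FPM in replicates 3, 4 and 5. Replicates 1 and 2 were lower and the other 3 were higher. The log2-fold change was 0.09 ± 0.43 with the mouse label (-0.07 ± 0.38 without the control library of batch 2 replicate 4, -0.0015 ± 0.43 without that of replicate 2), -0.24 ± 0.27 with the culture set block and -0.19 ± 0.20 in batch 1 alone. With U46619 the mean difference from control per mouse or set was -0.99 ± 0.53 at 24 h (n = 6) and -0.23 ± 0.52 at 48 h (n = 5). Here and in the next test the 5 sets were taken as separate, although replicates 1 and 4 share a mouse label. An exact two-sided permutation test of the difference between times gave p = 0.0519, and 0.351 after adjustment over 27 such tests (9 genes, 3 treatments). For EGF+U46619 the p was 0.0346 and also 0.351 after adjustment. A difference of the effect between 24 h and 48 h was therefore not established for any member, and the times also differ in their mice and batches. Compared with EGF alone, Pdgfra was lower with EGF+U46619 in 5 of 5 sets at 48 h (-0.43 ± 0.43), though not called. At 24 h this held in 6 of 6 mice (-0.95 ± 0.38). Against control, Pdgfra with EGF+U46619 at 48 h was lower in 3 of 5 sets (-0.16 ± 0.47).

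Pdgfrb at 48 h was lower than control in 5 of 5 sets with EGF+U46619, where it held 559, 296, 413, 360 and 256 FPM in replicates 1 to 5 against 699, 521, 424, 469 and 330 FPM in control. The log2-fold change was -0.14 ± 0.35 with the mouse label (-0.22 ± 0.35 and -0.23 ± 0.34 without the control library of batch 2 replicate 4 or 2) and -0.41 ± 0.15 with the culture set block (adjusted p = 0.0568 by edgeR and 0.0377 by DESeq2), which was not called. Against EGF alone it was -0.48 ± 0.15 with that block (adjusted p = 0.0284 and 0.0142), which was called, as were 13.1% of all genes. The summed fibroblast, smooth muscle and leukocyte markers were also below control in 5 of 5 sets with EGF+U46619. Their log2 differences were -0.72 to -0.54, -2.05 to -0.26 and -1.12 to -0.14. Of the smooth muscle markers Mylk was called lower in the fit with the mouse label. The mesothelial sum was higher in 5 of 5 sets (0.14 to 0.79). The medians of the log2 difference were -1.26 for the pericyte and -1.77 for the Schwann markers. The part of these markers in the values of Pdgfrb was not tested. Fgf7 was called in batch 1 alone with U46619 (0.31 ± 0.10, adjusted p = 0.0455 and 0.0181) and with EGF+U46619 (0.39 ± 0.10, adjusted p = 0.0132 and 0.0021), but not with the culture set block over both batches. In batch 1 it went with U46619 from 86.5 to 134, from 112 to 138, from 65.0 to 86.7 and from 177.1 to 225 FPM in replicates 2 to 5 and from 78.5 to 72.0 FPM in replicate 1. It was also called in batch 1 for EGF+U46619 against EGF, beside 5.62% of all genes. In the same 5 sets the summed fibroblast and Schwann markers were lower with U46619 (log2 difference -0.64 to -0.59 and -1.88 to -0.69). The pericyte and endothelial sums were lower as well (-1.37 to -0.15 and -0.45 to -0.03). The mesothelial sum was higher there (0.14 to 1.41). The part of these markers in the values of Fgf7 was not tested.

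**Figure D5:**
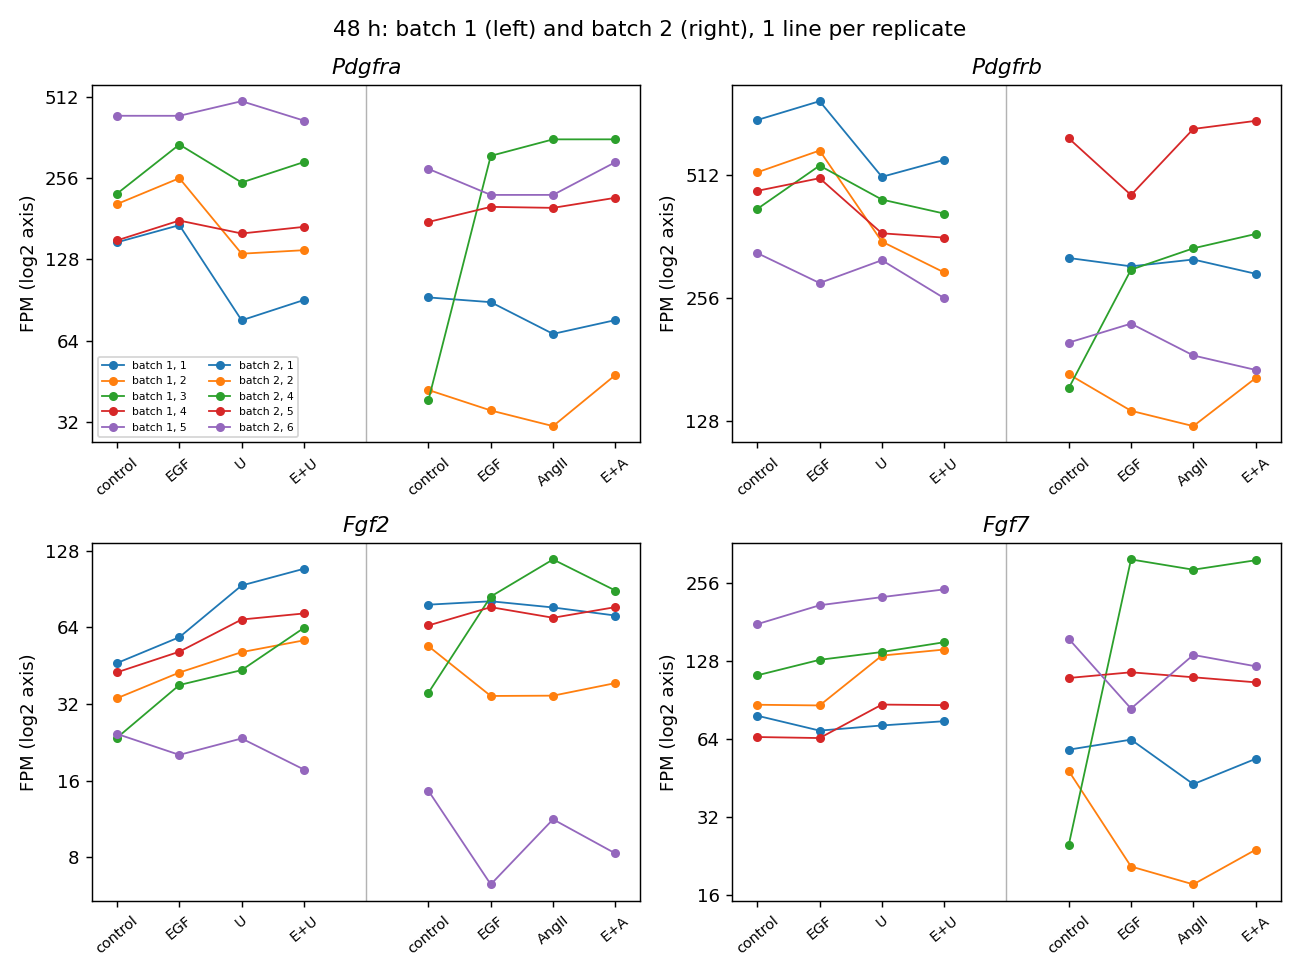
Pdgfra, Pdgfrb, Fgf2 and Fgf7 after 48 h in FPM (log2 axis), batch 1 on the left and batch 2 on the right of each panel, with 1 line per culture set. Fgf2 is higher with U46619 in 4 of 5 sets of batch 1, and the control library of batch 2 replicate 4 departs from its line.

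AngII and EGF+AngII at 48 h rest on batch 2, where the control libraries of replicates 4 and 2 stood apart. In the set of replicate 4 Pdgfra held 38.5 FPM in control and 310, 357 and 357 FPM with EGF, AngII and EGF+AngII. In the other 4 sets AngII gave 67.7, 30.8, 199 and 222 FPM against 92.5, 41.9, 176.1 and 277 FPM in control. The log2-fold change of Pdgfra with AngII was -0.13 ± 0.43 with this library and -0.28 ± 0.38 without it, and no member was called either way. Without the control library of replicate 2 it was -0.23 ± 0.43, that of Fgf7 with AngII was 0.06 ± 0.40 (0.09 ± 0.39 with all libraries), and again no member was called in any 48 h comparison. Per set, Fgf7 with AngII was higher than control in 2 and lower in 3, with a median log2 difference of -0.21. The range was -1.43 to 3.50, and the highest value was in the set of replicate 4. The fitted value of Fgf7 without the control library of replicate 4 is not given here. Fgf10 was highest in the sets of batch 1 replicate 5 (median 22.8 FPM) and batch 2 replicate 6 (40.4 FPM) and had a median of at most 5.90 FPM in the other 8, whatever the treatment. The mesothelial marker sum was highest in the same 2 sets, with medians of 185.2 and 528 FPM. These 2 sets also had the lowest medians of the smooth muscle sum (1009 and 578 FPM) and of the endothelial sum (14.3 and 18.9 FPM). Which of these goes with Fgf10 was not tested. At 24 h the levels of Fgf10 and of the mesothelial sum matched in part. Mouse 3 had the next to highest median of Fgf10 (0.94 FPM) and the highest mesothelial sum (820 FPM), but mouse 4 had the highest median of Fgf10 (1.26 FPM) with a mesothelial sum of 4.02 FPM, and mouse 5 a median of 0 with a sum of 278 FPM.

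The remaining ligands and receptors of these families went down or did not pass. Of 22 listed genes, 12 were tested at 24 h and 3 (Pdgfd, Fgf13 and Fgf16) were listed at 0 throughout. Since whole chromosomes are listed at 0 in these tables, such zeros cannot be read as a lack of expression. With EGF+U46619, 5 fell and 0 rose, where 16.3% of all genes were called lower. Fgfrl1, a receptor without a kinase domain, fell by 1.03 ± 0.18 on the log2 scale from a control mean of 119 FPM. Pdgfrl, a receptor-like gene, fell by 2.12 ± 0.31 from 25.4 FPM, Fgf18 by 3.04 ± 0.63 from 24.8 FPM and Fgfr2 by 0.50 ± 0.18 from 27.3 FPM. Fgf18 and Fgfrl1 were also called, lower, with U46619 and EGF+AngII+U46619 at 24 h and with EGF+U46619 at 48 h (-1.57 ± 0.49 and -0.93 ± 0.24). Fgf18 was called lower with EGF+AngII at 24 h too, without U46619, beside 3.13% of all genes. All calls with EGF+AngII were lost without mouse 1, 2, 3 or 5. The median log2-fold change of the 12 genes with EGF+U46619 at 24 h was -0.47, beside -0.05 for all genes tested.

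Among 18 adaptors and effectors 16 were tested, and with EGF+U46619 at 24 h 3 rose and 5 fell (median 0.07), where 17.1% of all genes were called higher and 16.3% lower. The most abundant were Ptpn11, the phosphatase SHP2 (0.41 ± 0.15, rose), Crk, an SH2 adaptor (0.66 ± 0.17, rose), Shc1 (-0.18 ± 0.11, not called) and Stat3 (0.16 ± 0.14, not called). Gab1, a docking protein that binds SHP2 and PI3K, was the only one called in all 3 groups with U46619 at 24 h and with EGF+U46619 at 48 h, and it fell by 1.16 ± 0.16 at 24 h and by 0.87 ± 0.14 at 48 h. Gab1 was also called lower with EGF+AngII at 24 h, without U46619, beside 3.13% of all genes. The same held with U46619 alone at 48 h, beside 4.03%.

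The feedback inhibitors and ERK target factors, which are induced by receptor tyrosine kinase signalling in general, gave 7 higher and 2 lower of 15 tested with EGF+U46619 at 24 h (median 0.42), beside the 17.1% and 16.3% of all genes. Dusp4 and Dusp5, nuclear ERK phosphatases, rose by 1.74 ± 0.33 and 1.81 ± 0.28, Etv4, an ETS factor, by 1.87 ± 0.47 and Spred3 by 0.85 ± 0.19. Dusp6, the cytoplasmic ERK phosphatase, rose by 1.08 ± 0.31. Spry1, a Sprouty inhibitor, fell by 1.49 ± 0.23. Dusp4, Dusp5, Etv4, Spred3 and Spry1 had the same direction and were called in the 4 comparisons named above, at 48 h with 1.15 ± 0.27, 1.09 ± 0.28, 1.16 ± 0.25, 0.88 ± 0.23 and -1.59 ± 0.49. Spred1, the most abundant of the list, was at 0.31 ± 0.19 and not called. With EGF+AngII at 24 h, without U46619, 6 of the 15 were called higher (Spred1, Dusp6, Dusp4, Etv4, Etv5 and Spry4) and 0 lower, where 3.13% of all genes were called. These calls were not stable: without mouse 1, 2, 3 or 5, without the mouse term and with only these groups in the fit, 0 genes of any kind were called for EGF+AngII. EGF itself is a ligand of this route, and these genes do not tell which receptor was active.

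Of 12 genes for ligand processing, carriers and co-receptors 9 were tested, and 2 rose and 2 fell with EGF+U46619 at 24 h, where 33.4% of all genes were called. Thbs1, thrombospondin 1, rose by 1.70 ± 0.21 from a control mean of 2037 FPM at 24 h and by 1.08 ± 0.19 at 48 h. Sparc, which binds PDGF (-0.26 ± 0.15), Lrp1, an endocytic co-receptor of PDGFRβ (-0.36 ± 0.18), and Plat, the protease that activates PDGF-C (-0.68 ± 0.33), were not called in this comparison. Of 20 heparan sulfate proteoglycans and their enzymes 17 were tested, and 5 rose and 3 fell in the same comparison. Gpc1, a glypican, rose by 0.75 ± 0.15 and Hs2st1, a sulfotransferase that makes FGF binding sites, by 0.81 ± 0.14, and both were called in the 4 comparisons, at 48 h with 0.93 ± 0.20 and 0.40 ± 0.11. Ext1, a polymerase of the chain, rose by 0.73 ± 0.14, Sdc2 fell by 0.42 ± 0.16, and Hspg2, perlecan, was at 0.43 ± 0.22 and Sdc1 at -0.47 ± 0.20, both not called.

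The genes with the most similar course over the 42 libraries of 24 h, after the mouse mean was subtracted from log2 (FPM + 0.5), were found by Pearson's r among about 10161 genes. For Fgf2 they were Cdk17 (r = 0.95), Slc25a24 (0.95) and Steap2 (0.94). For Pdgfra they were Slc44a1 (0.95), Sh3d19 (0.95) and Pla2r1 (0.95), and for Pdgfrb Svep1 (0.91), Ankrd13a (0.91) and Bicc1 (0.90). For Pdgfa they were Gadd45b (0.94), Lbh (0.92) and Ppp1r14a (0.92), for Pdgfc Loxl2 (0.82), Galnt17 (0.81) and Ext1 (0.80), and for Fgfr1 Klhl21 (0.83), Brd2 (0.82) and Pfkfb3 (0.81). For Fgf7 they were Rasgrp3 (0.81), Enpp4 (0.77) and Rps6kb1 (0.77), for Pdgfb Egr2 (0.77), Sting1 (0.74) and Spry4 (0.73), and for Fgf10, at its low counts, Egr3 (0.57), Zfp57 (0.57) and Prl2c2 (0.53). By Spearman's rho Spry4 came only at rank 735 for Pdgfb (0.40) and Prl2c2 at rank 82 for Fgf10 (0.38). Among the members themselves Pdgfra and Pdgfrb were most alike (r = 0.84), and Fgf2 ran opposite to both (r = -0.47 and -0.48). The libraries share mice and treatments, so these values describe this data set.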

How the data were processed

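RNA was sequenced from 82 libraries of aVSMC. Per the labels and the study's methods, the authors enriched poly(A) RNA, aligned paired reads to mm10 with HISAT2 2.1.0 and counted reads over exons per gene with featureCounts, multi-mapping reads included. The deposited values are raw counts, not normalized, in 1 table for 24 h and 1 for each batch of 48 h. Genes of chromosomes 9, X, Y and MT (7075 genes) are listed at 0 in all libraries.

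Each time was fitted separately with treatment and mouse label in edgeR 4.0.16 (quasi-likelihood F-test, TMM scaling) and DESeq2 1.42.0 (Wald test), with Benjamini-Hochberg adjustment over all genes that passed filterByExpr (14653 at 24 h, 15796 at 48 h). Calls needed an adjusted p under 0.05 in both tools, the same sign, at least 5 FPM in a compared group, and the filter passed at both times (14528 genes). Log2-fold changes and SE are edgeR's, with 95% intervals from the SE. SDs are over mice or culture sets. Shared replicate numbers paired the samples: all 126 pairs of same-mouse libraries at 24 h had deviations correlated above 0.1 (median 0.78), and 57 of 60 same-set pairs at 48 h (median 0.81). The 3 others involve the control library of batch 2 replicate 4. No 2 libraries were identical.

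The 9 genes and the marker and pathway lists were chosen with earlier results of these data known. From each pathway list the 4 most abundant genes were named, and those called with U46619, EGF+U46619 and EGF+AngII+U46619 at 24 h and with EGF+U46619 at 48 h alike. Positions and exon lengths come from GENCODE vM21, which matches the mm10 build, and promoter windows from RefSeq. Tools, scaling, filters, blocks and left-out libraries were varied, and the tests between times and the left-out single libraries were added after the data were seen.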

Additional observations from a re-analysis of the deposited data

Results flagged for a closer look

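In 6 of 117 groups of 5, 6 or 10 libraries, 1 library lay farther from the others than Dixon's critical value allows at the 95% level, and chance alone flags about 1 in 20 groups. Of these, 4 concern mouse 3 at 24 h. With EGF+AngII+U46619 its Pdgfra was 27.51 FPM, against 118 to 256 FPM in the other mice, and its Fgf2 was 8.214 FPM, against 44.5 to 78.8 FPM. Its Pdgfrb was 356.1 FPM in control, against 593 to 740 FPM, and 199.9 FPM with EGF+AngII, against 641 to 1000 FPM. Fgf10 was 1.143 FPM with AngII in mouse 4, against 0 to 0.141 FPM in the other mice. Fgfr1 was 474.3 FPM with EGF+AngII in mouse 2, against 237 to 285 FPM.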

How the results depend on the processing

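At 24 h the calls depended on the mouse term and on the groups in the fit. Without the replicate block, 0 members were called with U46619, with EGF+U46619 and for EGF+U46619 against EGF, beside 7.14%, 12.6% and 0.723% of all genes, and 2 with EGF+AngII+U46619 (14.8%). With only the groups compared in the fit, 1 member (Pdgfra) was called with EGF+AngII+U46619, beside 10.7% of genes. When 1 replicate was left out at a time, 2 members were called with U46619 throughout (17.2% to 32% of genes), 2 to 3 with EGF+U46619 (24.3% to 35.1%), 2 to 3 with EGF+AngII+U46619 (26.8% to 37.4%) and 2 to 4 for EGF+U46619 against EGF (4.96% to 19%). With EGF+AngII 0 members were called throughout, beside 0% to 7.74% of genes, and 10.2% without the EGF+AngII+U46619 library of mouse 3. Fgf2 and Pdgfra remained called with U46619 and with EGF+U46619 under 16 of 17 alternatives, the exception being the fit without the replicate block.

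At 48 h the replicate block by culture set in place of the mouse label called 1 member with EGF+U46619 (Fgf2, beside 14.9% of genes) and 1 for EGF+U46619 against EGF (Pdgfrb, 13.1%). Batch 1 alone called 2 with U46619 (11.2% of genes), 2 with EGF+U46619 (Fgf2 and Fgf7, 15.7%) and 1 for EGF+U46619 against EGF (Fgf7, 5.62%). With only the groups compared, 0 members were called with U46619, with EGF+U46619 and for EGF+U46619 against EGF, beside 1.97%, 3.41% and 0.00708% of genes. No called log2-fold change turned its sign. Of those not called, the following were larger than their SE and turned. Pdgfb at 24 h was -0.0684 with EGF, 0.37 for EGF+U46619 against EGF and 0.26 for the interaction without the replicate block. For EGF+U46619 against EGF it was -0.7537 to 0.1143 when 1 replicate was left out. At 48 h Pdgfb was 0.18 with U46619 in batch 1 alone, and Fgf2 -0.0348 with EGF+AngII in batch 2 alone. Values smaller than their SE turned as well, such as that of Pdgfra with U46619 at 48 h, which was 0.09 with the mouse label but -0.24 with the culture set block and -0.19 in batch 1 alone. With 1 replicate left out at a time, Fgf2 with EGF+AngII was -0.0276 (without batch 2 replicate 4) to 0.5992, and Pdgfa with EGF+U46619 was -0.3947 to 0.0090 (without batch 1 replicate 5). Why the block changes the calls was not tested. Counts of a few FPM, as for Fgf10, limit what could be detected.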
